A study of Mus musculus with 12 samples.

Results

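The Notch pathway genes described here were 10 genes chosen by symbol, namely the receptors *Notch1*, *Notch2*, *Notch3* and *Notch4*, the ligands *Jag1*, *Dll1* and *Dll4*, the nuclear factor *Rbpj* and the target genes *Hes1* and *Hey1*. All 10 were found among the 16971 rows of the authors' table, and all 10 passed the minimum that left 12889 genes, a sum of 10 normalized counts across libraries. The cells were GFP(+) cells sorted by FACS from the nonparenchymal fraction of livers of mice labelled C57BL/6 (the Prom1 allele came from a C57BL/6N and the Rosa26 allele from a C57BL/6J background) of the genotype Prom1CreERT2-nLacZ/+;Rosa26Lsl-GFP/+, described as 6 weeks old, with both sexes in every group but in unequal numbers. In these mice tamoxifen, given to every animal 7 days before the operation, switches on GFP in cells that then express *Prom1* and in their progeny, so the label depends on where the *Prom1* allele drives Cre. The 3 groups were Day 0 (labelled sham, and described in the study as before surgery), BDL day 3 and BDL day 14. Bile duct ligation (BDL) stops bile flow and injures the liver by cholestasis. The labels list 3, 3 and 6 libraries, and the group means rest on 3, 3 and 4 of them. Values given in a row follow the order Day 0, BDL day 3, BDL day 14, and ratios are to Day 0 unless stated. The labels call the cells Prom1-expressing progenitors with their progeny, and markers of other liver cell types were also abundant, as given at the end.

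Notch signalling passes between touching cells. A ligand of the Jagged or Delta-like family on one cell binds a Notch receptor on its neighbour, the receptor is cut first by an ADAM protease and then by γ-secretase, and the freed intracellular part enters the nucleus, where it joins RBPJ and Mastermind proteins to switch on repressor genes of the Hes and Hey families. In the liver the pathway is known for bile duct formation, where JAG1 and NOTCH2 are required, and for the upkeep of the vessel wall, where endothelial cells use DLL4, NOTCH1 and NOTCH4 and mural cells use NOTCH3.

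The table gives for each gene 1 mean per group of counts normalized by the upper quartile method, the mean and the geometric mean over all 10 libraries, and the normalized count of the highest library, which it does not name. No value of any other single library was analysed here, depth per library is unknown, and no replicate test was run. The summary values nevertheless limit what the libraries can have held. The gap between the geometric mean and the highest one that the group means allow gave an estimate of the spread between libraries within groups, from which the standard errors (SE) below were taken. The same gap, with the highest library, gave the lowest and the highest value that any library of a group can have had. Where these values left no room for a library of one group to reach a library of another, the groups are said to be unable to overlap. For the 8792 genes with means in the range of the 10 Notch genes, the estimated spread had a median of 0.64 on the log2 scale, with quartiles of 0.45 and 0.98.

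At BDL day 3, 6 of the 10 genes had means over 1.5-fold lower than at Day 0, and 0 had means over 1.5-fold higher. The 6 were *Jag1*, *Dll1*, *Dll4*, *Notch3*, *Notch4* and *Hes1*. Of all 12889 genes, 29.2% were over 1.5-fold lower and 19.2% over 1.5-fold higher in this comparison. The groups could not overlap for 2 of the 10, *Jag1* and *Notch4*, both lower at BDL day 3, and over all genes this held for 3.55% in that direction and 1.97% in the other. The median log2 ratio of the 10 genes was -1.28, and that of all genes was -0.02.

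At BDL day 14, 5 of the 10 genes (*Notch3*, *Jag1*, *Dll1*, *Hes1* and *Hey1*) had means over 1.5-fold lower than at Day 0, against 28.8% of all genes, and 2 (*Notch2* and *Rbpj*) had means over 1.5-fold higher, against 21.2%. The groups could not overlap for *Hes1*, which was lower at BDL day 14, as were 4.03% of all genes by this measure, while 1.94% of all genes and 0 of the 10 were higher. Between BDL day 3 and BDL day 14, 7 of the 10 had means over 1.5-fold higher at the later time (21.2% of all genes) and 2, *Hes1* and *Hey1*, over 1.5-fold lower (19.7%). Here *Jag1* and *Notch4* were again the 2 genes whose groups could not overlap, and both were higher at BDL day 14, as were 1.07% of all genes. In the other direction it was 1.91% of all genes and 0 of the 10. The comparisons share groups with each other, so that a low BDL day 3 mean enters both comparisons that involve it.

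**Figure D1:**
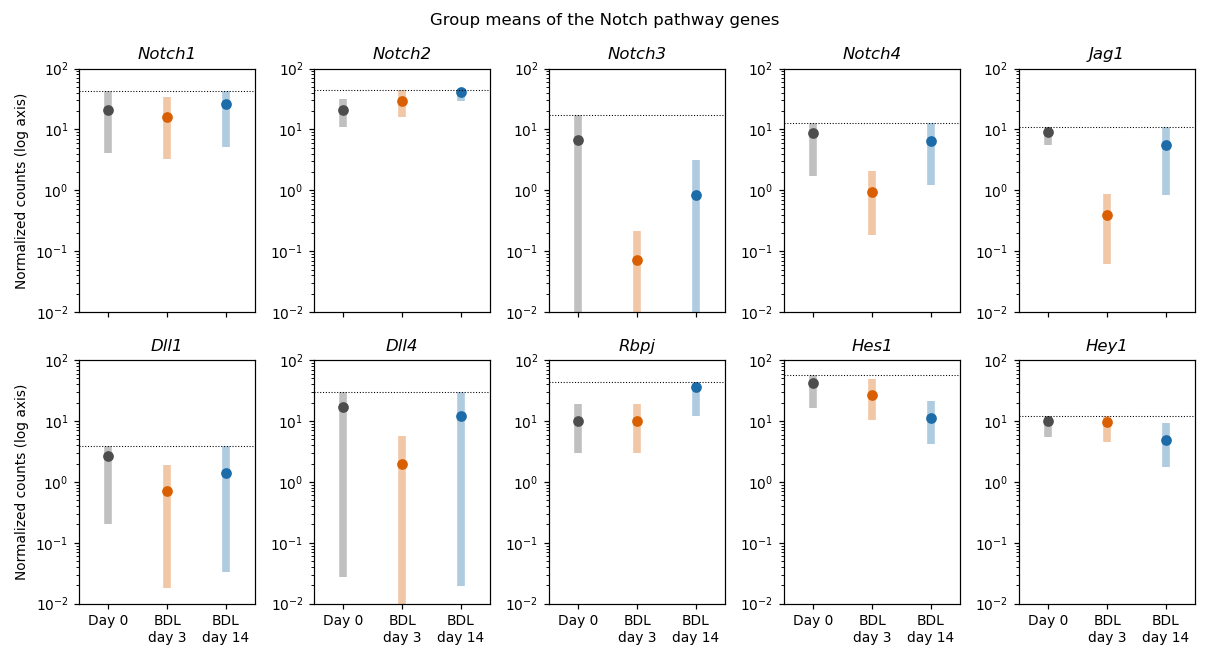
Group means (points) of the 10 Notch pathway genes in normalized counts on a log axis, by group. Bars span the values that single libraries of the group can have held, cut at 0.01, and the dotted line is the highest library of the gene. The BDL day 3 bar of *Jag1* ends below the start of its Day 0 bar, whereas the bars of *Notch1* cover one another.

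*Jag1* encodes the ligand whose loss gives a shortage of bile ducts. It lies on chromosome 2 from 137081456 to 137116644 on the minus strand (GRCm38). Its means were 9.22, 0.393 and 5.57 normalized counts, and its highest library held 10.9. From these values, each Day 0 library held between 5.61 and 11.0, each BDL day 3 library at most 0.886, and each BDL day 14 library between 0.824 and 11.0. All 3 Day 0 libraries were thus above all 3 BDL day 3 libraries, which were also below every BDL day 14 library when the limits were applied jointly, and Day 0 and BDL day 14 may overlap. The log2 ratios were -4.55 (SE 0.65) at BDL day 3 and -0.73 (SE 0.61) at BDL day 14, and BDL day 14 stood 3.83 (SE 0.61) above BDL day 3 on the log2 scale. Of all genes, 1.52% had a lower ratio at BDL day 3. The BDL day 3 mean was little above 0.292, up to which means of that group were read as not detected. The size of this ratio therefore depended on the setting, with -3.61 after quantile normalization and -2.88 with a pseudocount of 1. The difference between Day 0 and BDL day 14 was little over the estimated error, and after quantile normalization it was under 1.5-fold (log2 ratio -0.47).

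*Dll4* encodes the ligand of sprouting and arterial endothelium (chromosome 2, 119325784 to 119335962, plus strand). Its means were 16.7, 1.96 and 12.1 normalized counts. The order of the groups was that of *Jag1*, with log2 ratios of -3.09 (SE 1.47) at BDL day 3 and -0.46 (SE 1.38) at BDL day 14, and of 2.63 (SE 1.38) between the BDL groups. The libraries of 1 group differed far more than for *Jag1*, with an estimated spread of 1.81 against 0.79 on the log2 scale. The highest library held 30.1, which cannot have been a BDL day 3 library, since no library of that group can have held over 5.74. A Day 0 library may have been as low as 0.0279, so an overlap of Day 0 and BDL day 3 could not be decided. A gene on the opposite strand, *Gm14207*, shares exon sequence with *Dll4* in GENCODE and had a mean over all libraries of 0.642, and whether the counting used strand is not given in the sources used here.

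*Dll1*, a Delta-like ligand known from lymphoid and developing tissue (chromosome 17, 15367354 to 15376872, minus strand), was the lowest of the 3 ligands at Day 0. Its means were 2.64, 0.707 and 1.38 normalized counts. The log2 ratios were -1.90 (SE 1.05) and -0.94 (SE 0.98), so the later difference was no larger than its error. The highest of the 10 libraries held 3.82. The difference between the BDL groups (log2 ratio 0.96, SE 0.98) was under 1.5-fold with a pseudocount of 1 (0.48).

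*Notch4*, a receptor largely of endothelial cells, was the receptor for which the difference between groups was clearest against the libraries. It lies on chromosome 17 from 34564268 to 34588503 on the plus strand. Its means were 8.87, 0.949 and 6.52 normalized counts. Each Day 0 library held between 1.73 and 12.8, each BDL day 3 library between 0.185 and 2.05, and each BDL day 14 library between 1.21 and 12.8. Taken singly these ranges touch, but the libraries cannot reach both ends at once, and no BDL day 3 library can have been as high as any library of Day 0 or BDL day 14. The log2 ratios were -3.22 (SE 0.58) at BDL day 3 and -0.44 (SE 0.55) at BDL day 14, and 2.78 (SE 0.55) between the BDL groups.

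*Notch3* is the receptor of vascular smooth muscle cells and pericytes (chromosome 17, 32120820 to 32166852, minus strand). Its mean of 6.60 normalized counts at Day 0 came mainly from 1 library, which held 17.1, or 86.4% of the group's sum, and the other 2 averaged 1.35. At BDL day 3 its mean of 0.0729 was the lowest value in the table for that group. Means of up to 4 times this value, or 0.292, were read as not detected. Set against that limit, the Day 0 mean of *Notch3* was at least 22.6-fold higher, and at least 4.63-fold higher without the highest library. At BDL day 14 the mean was 0.844, with a log2 ratio of -2.97 (SE 1.44), or -0.68 without the highest library. Whether the groups overlap could not be decided for any pair. *Gm17276* lies antisense to *Notch3* and meets its exons in GENCODE.

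*Notch2* is the receptor of the bile duct lineage and is also present on myeloid cells (chromosome 3, 98013527 to 98150361, plus strand). It was the only receptor with a mean over 1.5-fold higher than at Day 0 in any comparison with Day 0. Its means were 20.7, 29.5 and 40.9 normalized counts, and its estimated spread of 0.26 was the lowest of the 10 genes. Each BDL day 14 library held at least 29.2 and each Day 0 library at most 32.2, so an overlap could be decided neither way. The log2 ratios were 0.51 (SE 0.21) and 0.98 (SE 0.20), and BDL day 14 differed from BDL day 3 by 0.47 (SE 0.20).

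*Notch1*, the receptor found most widely among tissues (chromosome 2, 26457903 to 26516663, minus strand), did not differ by more than its error from Day 0 at either time. Its means were 20.6, 16.0 and 26.4 normalized counts. The log2 ratios were -0.36 (SE 0.58) and 0.36 (SE 0.54). Between BDL day 3 and BDL day 14 the log2 ratio was 0.72 (SE 0.54), which is 1.65-fold. The highest library held 42.2, and it cannot be of BDL day 3, where no library can have held over 34.3.

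**Figure D2:**
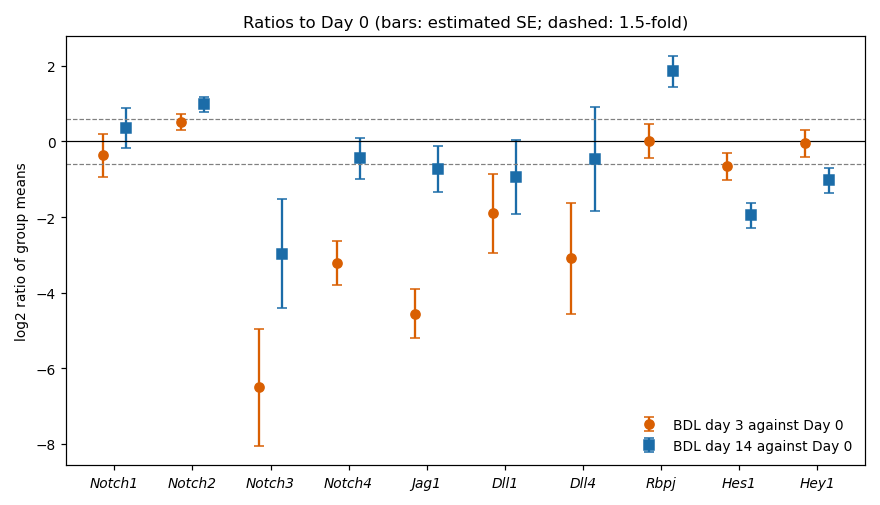
log2 ratios of the group means to Day 0 for the 10 genes at BDL day 3 (circles) and BDL day 14 (squares), with 1 estimated SE either way and dashed lines at 1.5-fold. *Jag1*, *Dll4* and *Notch4* lie between -4.55 and -3.09 at BDL day 3 and between -0.73 and -0.44 at BDL day 14, whereas *Hes1* and *Hey1* are lowest at BDL day 14 and *Rbpj* is highest there. The BDL day 3 point of *Notch3* rests on a mean at the limit of detection.

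Levels were also divided by the kilobases of merged exon. This length counts every annotated exon, whether or not it was expressed, and the shares and ranks between genes depend on it. At Day 0 *Notch1* and *Notch2* had means of 20.6 and 20.7, over 14.2 and 10.8 kilobases. Per kilobase the receptors summed to 5.28, 3.99 and 6.56 normalized counts. *Notch2* made up 36.3%, 68.6% and 57.8% of this sum. The share of *Notch1* was 27.4%, 28.2% and 28.3%, and that of *Notch4* was 20.8%, 2.95% and 12.3%. *Notch3* made up 15.4% at Day 0, or 3.60% without its highest library, and 1.59% at BDL day 14. Its BDL day 3 mean was not above the limit of detection. The ligands summed to 6.54, 0.744 and 4.42 per kilobase, with *Dll4* at 66.3%, 68.4% and 71.0% of the sum and *Jag1* at 24.2%, 9.07% and 21.6%. *Dll1* made up the remaining 9.56%, 22.5% and 7.39%.

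**Figure D3:**
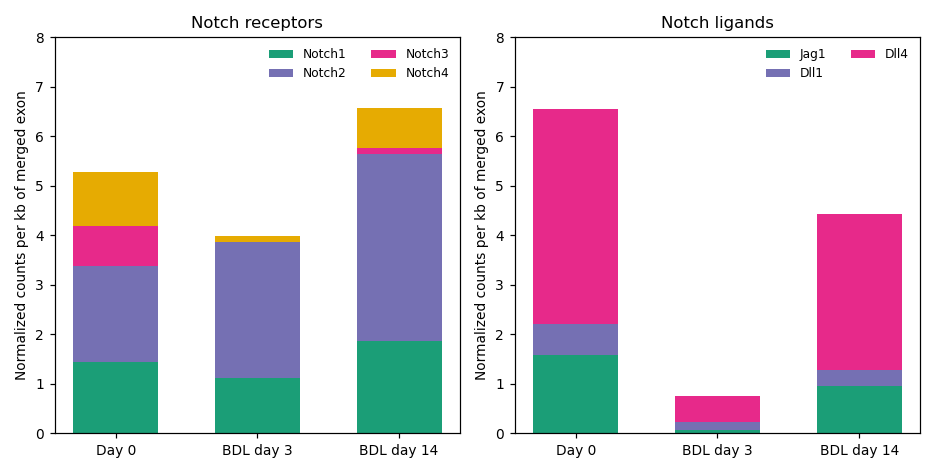
Levels of the receptors (left) and ligands (right) in normalized counts per kilobase of merged exon, stacked by gene for each group. The ligands summed to 6.54, 0.744 and 4.42, and *Notch2* was the largest part of the receptors in every group.

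*Rbpj* encodes the DNA-binding protein that turns the cut receptor into a transcription complex and that holds target genes off without it (chromosome 5, 53466152 to 53657362, plus strand). Its means were 9.86, 9.91 and 35.6 normalized counts. The first 2 lay within the error (log2 ratio 0.01, SE 0.44), and the log2 ratio of the last was 1.85 (SE 0.42) to Day 0 and 1.84 (SE 0.42) to BDL day 3. The highest library held 43.0 and can only be a BDL day 14 library. It was 30.2% of the sum of that group, and the other 3 averaged 33.1. Each BDL day 14 library held at least 12.0, and libraries of Day 0 and BDL day 3 held at most 19.1 and 19.2, so an overlap could be decided neither way. At Day 0 *Rbpj* was the 9th of the 10 genes per kilobase (0.773), and at BDL day 14 it was the 4th (2.79). The processed pseudogene *Rbpj-ps3* was listed with a mean over all libraries of 1.10, against 20.2 for *Rbpj*, and reads may have been shared between them.

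*Hes1* and *Hey1* encode repressors of transcription that RBPJ complexes switch on, and both had their lowest means at BDL day 14. *Hes1* (chromosome 16, 30064384 to 30067796, plus strand) was the highest of the 10 genes per kilobase in every group, with 21.0, 13.4 and 5.45. Its means were 42.8, 27.2 and 11.1 normalized counts. Its highest library held 56.0 and cannot be of BDL day 14, and with the limits applied jointly no BDL day 14 library can have been as high as any Day 0 library. The log2 ratios were -0.65 (SE 0.35) and -1.95 (SE 0.33), with -1.29 (SE 0.33) between the BDL groups.

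*Hey1* (chromosome 3, 8663359 to 8667256, minus strand) had means of 9.84, 9.50 and 4.83 normalized counts. At BDL day 3 the difference was within the error (log2 ratio -0.05, SE 0.36). The BDL day 14 mean had log2 ratios of -1.03 (SE 0.34) to Day 0 and -0.98 (SE 0.34) to BDL day 3. A Day 0 library held at least 5.45 and a BDL day 14 library at most 9.16, so those groups may overlap. Both targets had their lowest mean at BDL day 14, whereas all 3 ligands had theirs at BDL day 3.

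The order of levels per kilobase changed between the groups. At Day 0 it ran *Hes1* (21.0), *Dll4* (4.34), *Hey1* (3.01), *Notch2* (1.92), *Jag1* (1.58), *Notch1* (1.45), *Notch4* (1.10), *Notch3* (0.816), *Rbpj* (0.773) and *Dll1* (0.626). Below *Hes1*, neighbours in this order differed by less than the larger spread of the pair, except *Hey1* and *Notch2*. At BDL day 3 *Jag1* was the 9th, with 0.0674, and *Notch3* the 10th, with 0.00901. At BDL day 14 *Notch2* (3.79) followed *Hes1* (5.45), and *Dll4* (3.14) and *Rbpj* (2.79) came next.

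RefSeq gave promoter windows, from 250 bases before to 50 bases after a start, for 8 of the 10 genes, in 10 windows on GRCm38.p6. The 2 without a window were the target genes *Hes1* and *Hey1*, whose promoters were therefore not searched. They were searched on both strands for TGGGAA, the core bound by RBPJ, for CGGAAG, an ETS site, and for TGANTCA, the site of AP-1. No window held more than 1 kind of motif. TGGGAA was found in 2 of the 10 windows, both of *Rbpj* and overlapping each other, and in 25.6% of all 32851 windows. CGGAAG was found in 1, of *Notch2*, and in 16.9% of all. TGANTCA was found in 2, of *Notch4* and *Dll1*, and in 7.81% of all. The windows of the genes held 5 to 41 CG dinucleotides, *Notch4* the fewest and *Notch2* the most, against a median of 7 over all windows. The windows of *Rbpj* and *Notch2*, the genes over 1.5-fold higher at BDL day 14, and of *Notch4*, whose BDL day 3 libraries stood apart, are given 5′ to 3′ with the motifs in capitals. The *Rbpj* window lies inside the span of the GENCODE gene and holds both TGGGAA sites.
Rbpj promoter, chr5:53590096-53590395, plus strand: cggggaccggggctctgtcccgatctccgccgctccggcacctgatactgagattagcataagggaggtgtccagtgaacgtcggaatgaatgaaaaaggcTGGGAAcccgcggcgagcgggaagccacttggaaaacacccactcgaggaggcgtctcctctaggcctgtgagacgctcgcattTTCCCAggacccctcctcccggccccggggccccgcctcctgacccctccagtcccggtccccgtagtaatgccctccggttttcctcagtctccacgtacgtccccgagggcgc
Notch2 promoter, chr3:98013288-98013587, plus strand: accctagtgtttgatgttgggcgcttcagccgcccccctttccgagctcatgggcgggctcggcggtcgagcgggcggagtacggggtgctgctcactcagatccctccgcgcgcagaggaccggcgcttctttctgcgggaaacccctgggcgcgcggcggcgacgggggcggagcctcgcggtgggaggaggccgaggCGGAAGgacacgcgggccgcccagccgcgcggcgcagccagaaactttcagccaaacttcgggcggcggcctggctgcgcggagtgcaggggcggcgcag
Notch4 promoter, chr17:34564045-34564344, plus strand: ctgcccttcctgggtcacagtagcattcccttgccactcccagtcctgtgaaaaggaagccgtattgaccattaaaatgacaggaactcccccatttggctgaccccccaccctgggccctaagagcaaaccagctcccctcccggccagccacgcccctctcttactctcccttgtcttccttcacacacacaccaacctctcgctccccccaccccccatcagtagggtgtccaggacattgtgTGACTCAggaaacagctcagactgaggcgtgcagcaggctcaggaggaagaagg

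Of 65 further genes of the pathway, listed by role, 59 were in the table and 55 passed the minimum on summed counts. At BDL day 3 against Day 0, 8 of the 55 were over 1.5-fold higher and 9 over 1.5-fold lower, with a median log2 ratio of -0.04, where 19.2% of all genes were higher and 29.2% lower. At BDL day 14 against Day 0 they were 15 and 11 (median -0.02), beside 21.2% and 28.8% of all genes. Between the BDL groups they were 12 and 7 (median -0.03), beside 21.2% and 19.7%. Groups could not overlap for 1 higher and 2 lower of the 55 at BDL day 3 against Day 0 (1.97% and 3.55% of all genes). At BDL day 14 against Day 0 it was 2 higher and 3 lower (1.94% and 4.03%). Between the BDL groups it was 0 and 0 (1.07% and 1.91%). These shares of all genes also stand as the background of each list and each gene without overlap that follows.

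Of 10 genes for the cutting of the receptors, 4 were over 1.5-fold higher and 0 lower at BDL day 3 (19.2% and 29.2% of all genes), and 6 were higher and 0 lower at BDL day 14 (21.2% and 28.8%), with median log2 ratios of 0.43 and 0.63. *Aph1c*, a γ-secretase subunit, had means of 6.99, 19.6 and 28.8 normalized counts, and neither BDL group could overlap with Day 0. It has a close copy, *Aph1b*, with means of 9.79, 12.1 and 10.8, and reads may have been split between them. *Adam10*, which makes the first cut after ligand binding, had log2 ratios of 0.39 (SE 0.24) and 1.02 (SE 0.23), from a Day 0 mean of 70.3. Its relative *Adam17* had log2 ratios of 0.03 (SE 0.16) and -0.23 (SE 0.15).

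The sugar transferases that tune the receptors had 5 genes measured. *Lfng* was over 1.5-fold higher at BDL day 3 (means 30.9 and 60.0 at Day 0 and BDL day 3, log2 ratio 0.96, SE 0.30), and *Mfng* at BDL day 14 (means 9.99 and 23.1 at Day 0 and BDL day 14, log2 ratio 1.21, SE 0.25). The other 3, *Pofut1*, *Poglut1* and *Rfng*, stayed within 1.5-fold of Day 0. Among 6 genes for the uptake of ligands, *Mib2* had means of 17.6, 7.88 and 4.28 normalized counts, and neither BDL group could overlap with Day 0. *Mib1*, the ubiquitin ligase needed for Notch ligands to signal, had means of 14.9, 15.7 and 32.3. A single BDL day 14 library held 66.5, or 51.5% of that group's sum, and without it the mean was 20.9 and the log2 ratio 0.49, under 1.5-fold.

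Among 9 genes that limit the receptor, 2 were over 1.5-fold lower and 0 higher at BDL day 3 (29.2% and 19.2% of all genes), and 2 were higher and 2 lower at BDL day 14 (21.2% and 28.8%). *Numb*, which sends the receptor to lysosomes, had means of 26.3, 12.4 and 24.1 normalized counts (log2 ratio of BDL day 3 to Day 0 -1.08, SE 0.27). *Itch*, a ubiquitin ligase for Notch, had a log2 ratio of 0.80 (SE 0.16) at BDL day 14, where its libraries could not overlap with those of Day 0. Of 8 nuclear coactivators, none differed over 1.5-fold at BDL day 3, whereas later *Maml3* was higher (log2 ratio 0.66, SE 0.65) and *Kat2a* lower (-0.79, SE 0.44). Of 11 corepressors that passed the minimum, 1 was higher and 3 lower at BDL day 3, and 2 were higher and 2 lower at BDL day 14.

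Of the other target genes, 8 of 11 were in the table and 6 passed the minimum, of which 1 was higher and 3 lower at BDL day 3 (19.2% and 29.2% of all genes), and 1 was higher and 4 lower at BDL day 14 (21.2% and 28.8%). *Nrarp*, a target that damps the pathway, had means of 4.97, 0.834 and 4.91 normalized counts, lowest at BDL day 3 like the means of *Jag1*, *Dll4* and *Notch4*. Its log2 ratio at BDL day 3 was -2.58 (SE 1.23). *Heyl*, a target in mural cells, had means of 3.91, 0.473 and 0.344, and neither BDL group could overlap with Day 0. Its log2 ratios were -3.05 (SE 1.13) and -3.51 (SE 1.06), with an estimated spread of 1.38. Both BDL means of *Heyl* were not far above the limits of detection of those groups, 0.292 and 0.244. *Myc* had a log2 ratio of -0.99 (SE 0.13) at BDL day 14, where its groups could not overlap. The only further ligand listed, *Jag2*, was under the minimum, with means of 1.63, 0.165 and 0.527, of which the second was at the limit of detection. A single Day 0 library held 4.40 of it, and the other 2 averaged 0.245, which is under the Day 0 limit of 0.512.

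**Figure D4:**
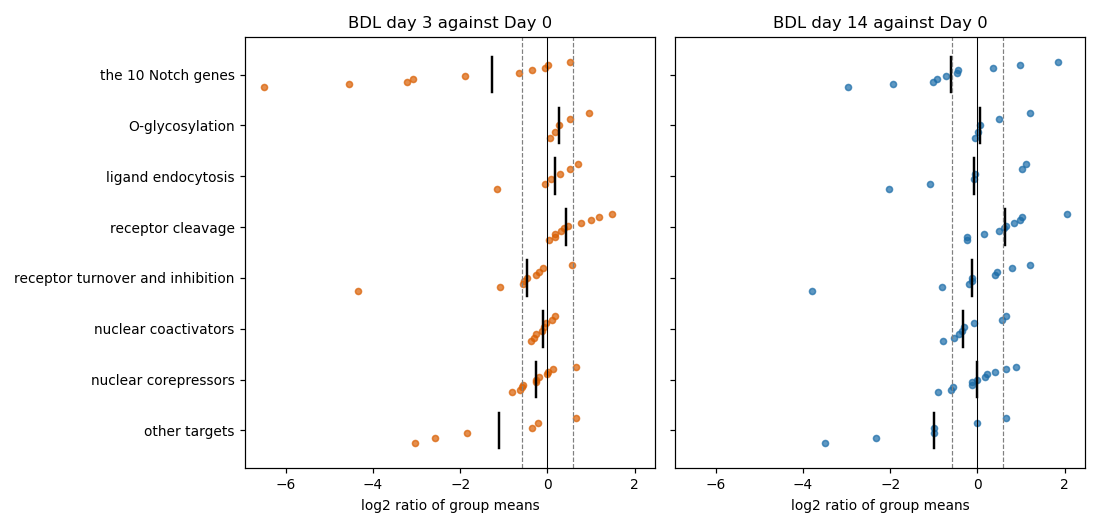
log2 ratios to Day 0 of the genes that passed the minimum, by role in the pathway, at BDL day 3 (left) and BDL day 14 (right). Each point is a gene, black marks are medians and dashed lines are 1.5-fold. The genes of receptor cleavage have medians of 0.43 and 0.63, and the 10 Notch genes have medians of -1.28 and -0.60.

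The likeness of profiles was measured as the distance between log2 ratios at BDL day 3 and BDL day 14 to Day 0, over 3 group means, among genes within 2-fold of the level. With 3 points many genes can be alike. For *Notch1* 138 of 4666 genes lay within a distance of 0.25, and for *Notch2* 142 of 4048, and their nearest genes are not named. *Dll4* had 3 such genes of 4739, the nearest being *Pitpnm2* (distance 0.10) and *Lamc1* (0.13), a laminin of basement membranes. *Notch4* had 5 of 3833, with *Pitpnm2* (0.04) and *Angpt2* (0.10), an angiopoietin of endothelial cells, first. *Jag1* had 2 of 3669, *Htra3* (0.08) and *Itga8* (0.19), an integrin of mesenchymal cells. *Rbpj* had 1 of 4771, *Nt5dc2* (0.21). *Hes1* had 8 of 4436, led by *Pram1* (0.07) and *Rnf31* (0.08), and *Hey1* had 62 of 4335. *Dll1* had 18 of 1917. *Notch3*, itself at the limit of detection at BDL day 3, had 0 of 2616.

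Markers of several cell types moved with the groups. In bulk samples, fewer cells of a type cannot be told apart from less RNA per cell. All 16 endothelial markers were detected in every group. Of these, 15 were over 1.5-fold lower at BDL day 3 than at Day 0, 14 were higher at BDL day 14 than at BDL day 3, and 3 were lower and 2 higher at BDL day 14 than at Day 0. In each of the 3 comparisons, the groups were unable to overlap for 0 of the 16. Their summed levels were 1542, 685 and 1612 normalized counts, and their median log2 ratios were -2.09 and 0.18. The exception at BDL day 3 was *Cdh5*, with means of 207 and 299 at Day 0 and BDL day 3. *Tek*, the angiopoietin receptor, had means of 40.9, 7.79 and 53.6, and *Flt1*, a receptor of vascular growth factor, 38.4, 4.78 and 42.4. Their log2 ratios at BDL day 3 were -2.39 (SE 0.84) and -3.01 (SE 1.08). The means of *Tek* and *Flt1* were lowest at BDL day 3, as were those of *Jag1*, *Dll4* and *Notch4*. *Dll1*, *Notch3* and *Notch1* also had their lowest means there, but the log2 ratio of *Notch1* was only -0.36 (SE 0.58). The part of the endothelial markers in the levels of these Notch genes was not tested. The summed levels of the stellate and mural markers and of the cholangiocyte markers, given next, were also lowest at BDL day 3.

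All 12 stellate and mural markers were over 1.5-fold lower than Day 0 at both times, and their summed level went from 1292 to 25.7 and 132 normalized counts. Their median log2 ratios were -5.49 and -3.62. Of the 12, 9 were over 1.5-fold higher and 2 lower at BDL day 14 than at BDL day 3. At BDL day 3 *Cspg4* was at the limit of detection, as was *Notch3*, and at BDL day 14 *Lrat* and *Cspg4* were. Of 10 cholangiocyte markers that passed the minimum, 9 were over 1.5-fold lower and 0 higher in the earlier BDL group, 7 were lower and 2 (*Spp1* and *Cldn4*) higher in the later one, and their summed level, of which *Spp1* was the greater part, was 538, 211 and 840. Of the same 10, 5 were over 1.5-fold higher and 0 lower at BDL day 14 than at BDL day 3. *Onecut1* and *Sctr* were at the limit at BDL day 3. *Prom1*, the gene that defines the label, had means of 6.66, 0.956 and 1.76. The 8 macrophage markers summed to 4888, 8917 and 14141 normalized counts, of which *Lyz2* alone was 2280, 4560 and 11200. Of the 8, 6 were over 1.5-fold higher at BDL day 3 and 2 at BDL day 14, with 0 lower. The sums of 8 Kupffer cell markers were 10375, 22621 and 1477, lowest at BDL day 14 like the means of *Hes1* and *Hey1*. At BDL day 3, 6 of these 8 were over 1.5-fold higher and 0 lower than at Day 0. At BDL day 14 all 8 were lower than in either earlier group. The groups could not overlap for 5 of them against Day 0 and for 7 against BDL day 3. The 8 markers of monocyte-derived macrophages summed to 159, 664 and 3882, and 7 of them were higher at BDL day 14 than at Day 0, as were *Notch2* and *Rbpj*. The 12 hepatocyte markers summed to 3617, 1103 and 475, the 8 T and NK cell markers to 145, 39.8 and 9.82, and the 6 B cell markers to 376, 89.8 and 55.6, all highest at Day 0 like *Hes1*. Of these, *Ncr1* and *Pax5* were at the limit of detection at BDL day 14. For every T, NK and B cell marker the highest library was of Day 0. It held from 40.2% (*Cd3e*) to 84.9% (*Ncr1*) of that group's sum. Among the hepatocyte markers, a single Day 0 library held 70.2% of the group's sum for *Fgb* and 35.2% for *Alb*. The Day 0 levels of several of these markers thus rested largely on 1 library. The part of these cell types in the levels of the Notch genes was not tested.

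**Figure D5:**
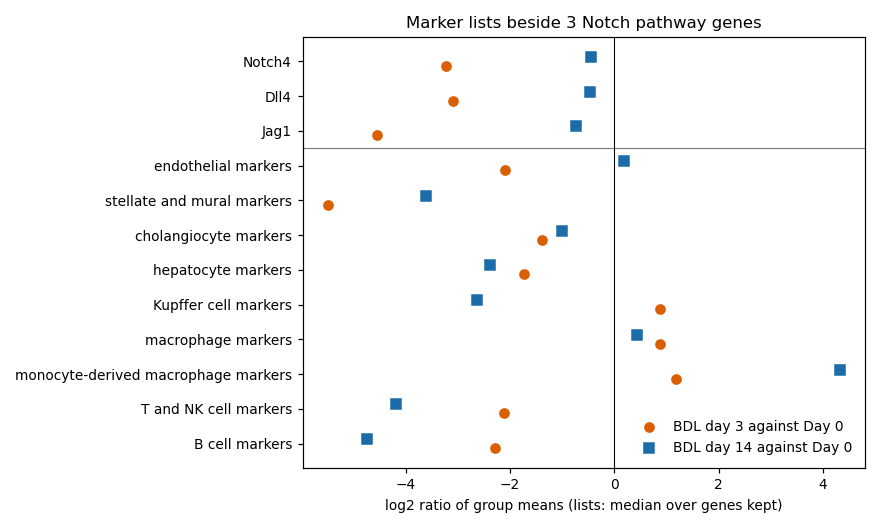
Median log2 ratios to Day 0 of the marker lists (genes that passed the minimum) at BDL day 3 (circles) and BDL day 14 (squares), with *Notch4*, *Dll4* and *Jag1* above the line. The endothelial list lies at -2.09 and 0.18, the stellate and mural list at -5.49 and -3.62, and the cholangiocyte list at -1.38 and -1.01. The 3 genes lie below -3 at BDL day 3 and between -0.73 and -0.44 at BDL day 14. The other Notch genes are not shown.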

How the data were processed

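GFP(+) cells were sorted into Trizol, RNA was purified with Trizol and silica columns, and libraries were made with a Truseq mRNA kit. The labels list 12 libraries, of which the study left out 2 of BDL day 14 for low reads. The study also excluded samples of Day 0 and BDL day 3 from RNA-seq for poor RNA quality. The authors trimmed the reads, aligned and quantified them with STAR (mm10, with GENCODE M18 as annotation) and applied upper quartile normalization in Partek Flow. STAR is given as version 2.6.1d in the submitters' processing notes, and the study's methods name another version. The deposited table holds signal values, namely the authors' least squares means of normalized counts per group and the mean over all libraries, and score values, namely the geometric mean over all libraries and the highest library of each gene. It also holds the authors' p-values, FDR, ratios, fold changes and limits for 3 comparisons, which were not used. It has 0 columns of values per library, so no replicate test, no SD of a group and no fit without a given library could be made, and library depth is unknown.

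Rows with a repeated symbol (2) were dropped after the first. Genes with normalized counts summing to at least 10 were kept. Weighted by 3, 3 and 4 libraries, the group means gave back the listed overall mean (deviation at the 99th percentile 0.469%, and 19.9% for the next set of sizes). The listed geometric mean exceeded what the group means allow in 5 genes, by at most 0.197%. The pooled spread within groups was taken to second order from the gap between those values (7 residual degrees of freedom, equal spread assumed in all groups), and it is an approximation for spreads over about 1 on the log2 scale. Limits on single libraries and on overlap follow from the same gap, widened by 0.1 in summed natural logs for rounding, and from the highest library. These steps were tried on simulated libraries with the same spread in every group, set to at most 1 on the log2 scale. Larger spreads, such as those of *Notch3* and *Dll4*, were outside that simulation. Means of up to 4 times the lowest mean of a group (0.512, 0.292 and 0.244) were read as not detected. Merged exon lengths came from GENCODE M21, and positions are its 1-based coordinates on GRCm38, with the same starts as the authors' table. Python 3.11.15, numpy 2.4.6, pandas 2.3.3 and matplotlib 3.10.9 were used.

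A gene was called over 1.5-fold from its group means alone, with the study's cutoff on the fold. The genes that could be named were the 10 Notch genes, those of the pathway and marker lists, and the 2 genes with the profiles nearest to each Notch gene (of which some are given by count only), among genes above the detection limit with an overall mean within 2-fold. The members and lists were chosen with earlier results of these data known. Alternatives were median-ratio scaling, quantile normalization, pseudocounts of 1 and 0.1, no filter, a 2-fold cutoff, leaving out the highest library where only 1 group can hold it, and no allowance for rounding, the last chosen after seeing the data.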

Additional observations from a re-analysis of the deposited data

How the results depend on the processing

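The log2 ratios of the 10 Notch genes, 30 over the 3 comparisons, kept their direction where they were past 1.5-fold and their side of that cutoff in 30 of 30 under median-ratio scaling and a pseudocount of 0.1, in 29 under a pseudocount of 1 and in 27 under quantile normalization, which moved the median ratio of all genes to 0.12 and 0.10 (BDL day 3 and 14 to Day 0). The exceptions were *Dll1* between the BDL groups (0.48 with the pseudocount, 0.57 after quantile normalization) and, after quantile normalization at BDL day 14 against Day 0, *Jag1* (-0.47) and *Dll1* (-0.11). The number of the 10 lower at BDL day 14 than at Day 0 was then 3 instead of 5. With a 2-fold cutoff it was also 3, and that of higher genes was 1 instead of 2. Genes lower at BDL day 3 than at Day 0 were then 5 instead of 6. Between BDL day 3 and BDL day 14, 1 instead of 2 was lower at the later time and 5 instead of 7 were higher. With the same cutoff, the further pathway genes were 3 higher and 6 lower at BDL day 3 and 6 higher and 5 lower at BDL day 14. Between the BDL groups they were 4 higher and 1 lower. At the 1.5-fold cutoff, the 7 Notch genes higher at BDL day 14 than at BDL day 3 became 6 with a pseudocount of 1 and after quantile normalization. Without the allowance for rounding, the genes whose BDL day 14 and Day 0 groups cannot overlap were 3 (*Hes1*, *Notch2* and *Rbpj*) instead of 1. The cause of these shifts was not tested beyond the construction of each setting. Shares of all genes at the 2-fold cutoff, under the other settings and without that allowance are not given. The counts at those settings therefore stand without a background. Leaving out the highest library was possible for *Notch3* and *Rbpj* and changed no call. No paired analysis was possible because the table holds group means only, with no column per library, and leaving out each replicate in turn was not run for the same reason. Unknown depth limits what can be said of *Dll1*, *Notch3*, *Notch4* and *Jag1*, whose BDL day 3 means were under 1 normalized count.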
